A study of Bos taurus with 12 samples.

Results

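The endometrium of heifers that later became pregnant and of heifers that did not was compared for how each changed from day 3 to day 7 of the cycle. The measure was the interaction of receptivity and day, that is the change from day 3 to day 7 in high receptive endometrium minus the same change in low receptive endometrium. All 12 arrays of the series entered it. Simmental heifers were sampled with a brush passed into the uterus, on day 3 or day 7 of the cycle before embryo transfer. In the next cycle an in vitro-produced blastocyst was transferred, and samples were grouped afterwards by its outcome. Samples of heifers with a detectable embryo form the high receptivity (HR) groups HR3 and HR7, which the labels call receptive, and samples of heifers without one form the low receptivity (LR) groups LR3 and LR7, labelled non receptive. All heifers were estrous synchronized and no other treatment was named for any group, and the ages of the heifers were not given in the sources used here. Each group had 3 arrays, and each array carried RNA pooled from 5 samples, so p-values measure the spread between pools and the spread between single animals cannot be seen. The outcome also depends on the embryo, so LR is not a measure of the endometrium alone. The study calls its design longitudinal, but whether the same heifers gave the pooled day 3 and day 7 samples was not stated outright.

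Day 3 of the bovine cycle follows ovulation, when estrogen still shapes the endometrium and the corpus luteum has only begun to form. By day 7 progesterone is rising, and the glands and the luminal epithelium turn to secretion, which feeds the early embryo before it attaches. A receptive endometrium is one that has passed through this change in step with the embryo, and a heifer that fails to conceive can have changed less, more or in another way.

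Values are log2 signals, in which a difference of 1 is a 2-fold difference, and array medians lay between 6.63 and 6.77. Of 24016 probe sets that are not controls, 7339 were tested, those above the array median on every array of at least 1 group and with a standard deviation of at least 0.2 over the 12 arrays. They named 3783 genes, each represented below by its brightest tested probe set. A probe set passed when its Benjamini-Hochberg adjusted p from limma was under 0.05, and "rose" and "fell" are used only for day changes that passed. As a check of the tissue, 9 tested markers of uterine epithelium, among them the keratins KRT18 and KRT19 and the adhesion protein CDH1, had mean levels of 11.44 in HR3, 11.28 in LR3, 11.35 in HR7 and 11.24 in LR7. In a bulk sample, fewer cells of a type and less RNA per cell cannot be told apart.

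Endometrium changed widely from day 3 to day 7 in HR and in LR, and the changes ran largely in parallel. The day change passed for 3045 probe sets in HR (41.5% of those tested), of which 1520 rose (20.7%) and 1525 fell (20.8%). In LR 3280 probe sets passed (44.7%), with 1663 that rose (22.7%) and 1617 that fell (22.0%). The number in LR was 320 with a labelling control of each array (dap, described with COPZ1) as a covariate and was 1957 from the LR pools alone, while with that covariate it was 3131 in HR. In LR the dap values did not overlap between the days, so the covariate and the day cannot be told apart there. With thr, a like control, the number in LR was 2574. The interaction passed for 0 of 7339 probe sets (0%) in limma. At an unadjusted p under 0.05, limma gave 286 probe sets (3.90%) and an ordinary linear model without moderated variances gave 264. Of the 286, 121 had a more positive change in HR (1.65%) and 165 a more negative change in HR (2.25%). Which sign was the more frequent depended on the pools. Positive values led with 133 against 82 without LR3 replicate 1 and 89 against 67 without HR3 replicate 2. They also led with 101 against 80 without HR7 replicate 2, 142 against 135 without HR7 replicate 1 and 218 against 207 without LR7 replicate 3. Without any other single pool negative values led, as with 146 positive against 255 negative without LR3 replicate 2 and 114 against 203 without HR7 replicate 3. Among genes with 1 symbol, 138 of 3783 had an unadjusted p under 0.05 (3.65%), 51 of them positive (1.35%) and 87 negative (2.30%).

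Across the 7339 probe sets, the day change in HR and that in LR had a Pearson r of 0.901 and a Spearman rho of 0.878. These 2 changes share no pool, but probe sets are not independent of each other, and the figure describes these 12 arrays. The same sign was found for 6557 probe sets (89.3%). The standard deviation over probe sets was 0.78 for the change in HR, 0.74 for the change in LR and 0.34 for their difference. Summed over the probe sets tested, day accounted for 63.1% of the sums of squares, receptivity for 4.27%, the interaction for 3.35% and the spread between pools for 29.3%. Per degree of freedom the interaction came to 0.92 times the spread between pools, against 17.26 times for day and 1.17 times for receptivity.

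**Figure D1:**
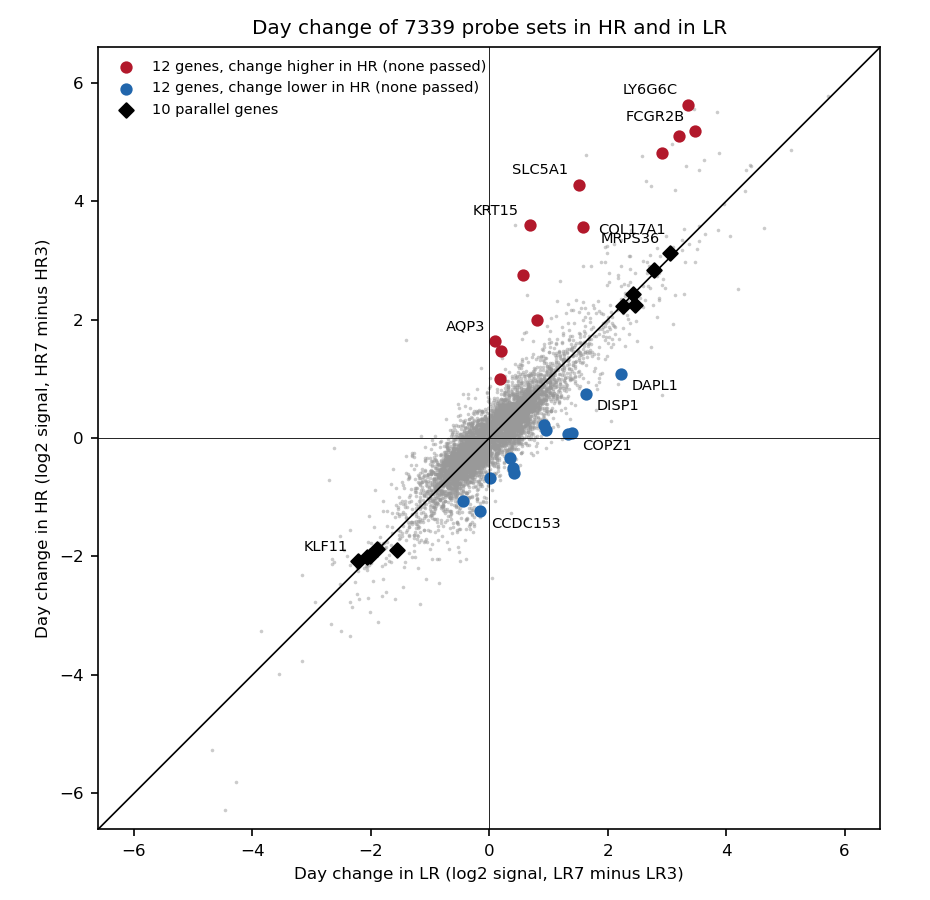
Each grey point is a probe set, with its change from day 3 to day 7 in LR on the horizontal axis and in HR on the vertical axis, both in log2 signal (mean of 3 pools at day 7 minus mean of 3 pools at day 3). The diagonal marks equal changes, on which the 10 parallel genes (black diamonds) lie closely, while the 12 genes with the lowest p in each direction (red above, blue below) lie off it, and none of these 24 passed for the interaction.

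Large changes seldom differed in direction. Of 508 probe sets whose mean was higher by at least 1 log2 unit at day 7 in HR, 506 had the same sign in LR, and 397 also reached 1 there. Their median change was 1.47 in HR and 1.41 in LR. Of 395 probe sets whose mean was lower by at least 1 in HR, 392 had the same sign in LR, but only 210 also reached that size, and the medians were -1.36 in HR and -1.06 in LR. Chosen from the other side, the 307 probe sets lower by at least 1 in LR had medians of -1.31 in LR and -1.32 in HR.

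The precision sets how far "parallel" can be read. The median standard error of the interaction was 0.26 log2 units and the median half-width of its 95% interval was 0.56. For 5523 probe sets (75.3%) this interval lay within 1 log2 unit of 0, which leaves a difference between the day changes of more than 2-fold outside the interval. Only 601 (8.19%) had an interval within 0.5. A smaller difference between HR and LR was therefore not detectable for most genes with 3 pools a group.

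A day change that passed in HR alone or in LR alone was no test of a difference between them. Of the probe sets that passed, 1182 rose in both groups, with a median of 0.81 in HR and 0.86 in LR, and 1046 fell in both, with medians of -0.67 and -0.68. None passed in opposite directions. The day change passed in HR only for 817 probe sets and in LR only for 1052. Of the HR-only probe sets 796 (97.4%) had the same sign in LR, and of the LR-only probe sets 1006 (95.6%) had the same sign in HR. The interaction passed for 0 of either set in limma. At an unadjusted p under 0.05 it gave 92 of the HR-only (11.3%) and 91 of the LR-only probe sets (8.65%), against 3.90% of all tested, but the interaction is computed from the same arrays that chose these sets.

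The difference could arise at either day. Of the 121 probe sets with a positive interaction at the unadjusted threshold, 57 had a larger rise in HR with a median interaction of 0.84, 42 had changes of opposite sign and 22 a larger decrease in LR. In 64 of the 121 the means of HR and LR were farther apart at day 7 and in 57 at day 3. Of the 165 with a negative interaction, 54 had a larger decrease in HR with a median of -0.91, 66 had opposite signs and 45 a larger increase in LR. Here HR and LR were farther apart at day 3 in 102 and at day 7 in 63, beside 4195 and 3144 of all probe sets tested.

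The 12 genes with the lowest p for a more positive change in HR included genes known from stratified epithelium, neutrophil proteins and transporters. KRT15, a keratin of basal cells in stratified epithelia, read 6.95, 7.55 and 6.84 in the 3 HR3 pools and 6.40, 6.97 and 7.44 in the LR3 pools. It read 10.17, 10.66 and 11.27 in HR7 and 7.61, 7.84 and 7.40 in LR7. The groups overlapped at day 3, and at day 7 every HR pool lay more than 2 log2 units above every LR pool. The change was 3.59 ± 0.31 (SE) in HR, which passed, and 0.68 ± 0.31 in LR, which did not. Its interaction was 2.91 ± 0.44, with a 95% interval of 1.95 to 3.86 and a limma adjusted p of 0.109. The other tested probe set of KRT15 gave 3.18 ± 0.50.

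COL17A1, the collagen that anchors basal epithelial cells to the basement membrane, rose in both groups, with a larger mean rise in HR. Its signals were 3.18, 3.47 and 3.88 in HR3 and 3.28, 3.19 and 3.15 in LR3, all far below the array median, where small values are imprecise. At day 7 they were 7.01, 7.02 and 7.17 in HR and 4.27, 5.18 and 4.94 in LR. The LR7 pools thus stayed below the array median and the HR7 pools lay above it, so that COL17A1 was tested only because of the group in which it was high. The rise was 3.56 in HR and 1.59 in LR, and the interaction was 1.97 ± 0.32 (1.28 to 2.66, limma adjusted p = 0.109). With 16 added to each signal before the logarithm, which damps low values, COL17A1 gave 1.64 with an adjusted p of 0.0315 and KRT15 2.83 with 0.046, and both then passed.

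Other epithelial genes had a larger mean rise in HR, but not all in the same way. AQP3, a channel for water and glycerol, read 6.71, 7.55 and 6.38 in HR3 and 8.43, 8.50 and 8.62 in HR7, beside 6.59, 6.77 and 7.49 in LR3 and 7.10, 6.66 and 7.40 in LR7. It rose by 1.64 in HR, while LR7 overlapped LR3 with a change of 0.10, and the interaction was 1.53 ± 0.43. KRT17, a keratin of basal and activated epithelial cells, rose by 1.77 in HR and changed by 0.59 in LR, which did not pass. Its HR7 pools at 8.61, 8.70 and 8.03 lay above the LR7 pools at 7.79, 7.11 and 6.83. KRT5, the partner keratin of basal cells, rose in both groups, by 4.34 in HR and 2.64 in LR. One LR3 pool of KRT5 read 7.11 beside 4.10 and 4.67 in the others, and its interaction of 1.70 had an interval of -0.13 to 3.53. LY6G6C, a cell surface protein of the LY6 family, rose by 5.63 in HR and 3.36 in LR, with HR7 and LR7 pools that overlapped (9.57 to 10.44 and 9.08 to 9.60) and HR3 pools below the LR3 pools. MALL, a protein of membrane rafts, rose by 1.99 in HR and 0.80 in LR. AQP3 and MALL, like COL17A1, met the level limit in HR7 alone, where they were high, so that their presence among the genes tested is in part a matter of the filter.

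Gene lists are read against all 3783 genes tested, of which 44.1% passed in HR (23.3% rose and 20.8% fell) and 44.7% in LR (25.0% rose and 19.7% fell). Of 12 tested genes of basal keratins, hemidesmosomes and the cornified layer, 8 rose and 2 fell in HR and 5 rose and 3 fell in LR. Their median change was 1.20 in HR and 0.64 in LR, and their median interaction was 0.40, where the median over all 3783 genes was -0.02. None passed for the interaction. An unadjusted p under 0.05 was found for KRT15, COL17A1, AQP3 and KRT17, of which COL17A1 and AQP3 were tested through HR7 alone, so the count is no support for a direction. The interaction was negative for 3 of the 12, namely KLK10, a serine protease, with changes of -2.77 in HR and -2.35 in LR, ITGB4, the integrin of hemidesmosomes, with 1.0 and 1.39, and JUP, the junction protein plakoglobin, with -0.50 and -0.39. LAMB3, a laminin chain of the basement membrane, fell in LR with a change of -0.47 and had -0.30 in HR. Keratins and junction genes of simple epithelium went both ways. Of 19 tested members 2 rose and 3 fell in HR and 4 rose and 3 fell in LR, with medians of 0.04 and 0.01. Their interactions ran from -0.92 for the claudin CLDN10 to 0.46 for the transcription factor ELF5, and those of KRT18 and CDH1 were 0.03 and 0.00.

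KRT15, KRT17 and KRT5 also stand in the marker list of squamous epithelium, so levels of that list are given beside them. Of its 18 markers 8 were on the array and 4 were tested (KRT15, KRT17, KRT5 and S100A2), with a median change of 2.68 in HR and 0.72 in LR. The other 4 lay below the array median on all arrays, and none was at 0 on all of them, although DSC3 was at 0 on some. The summed linear signal of the 8 ranged from 4461 to 4591 in HR3 and 11816 to 14330 in HR7, and from 4249 to 6408 in LR3 and 8539 to 9083 in LR7. HR7 thus lay above LR7 without overlap. Most of this sum came from S100A2 in every group, so it is less a level of the keratins. How far squamous cells taken with the brush contribute to the keratin values was not tested.

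**Figure D2:**
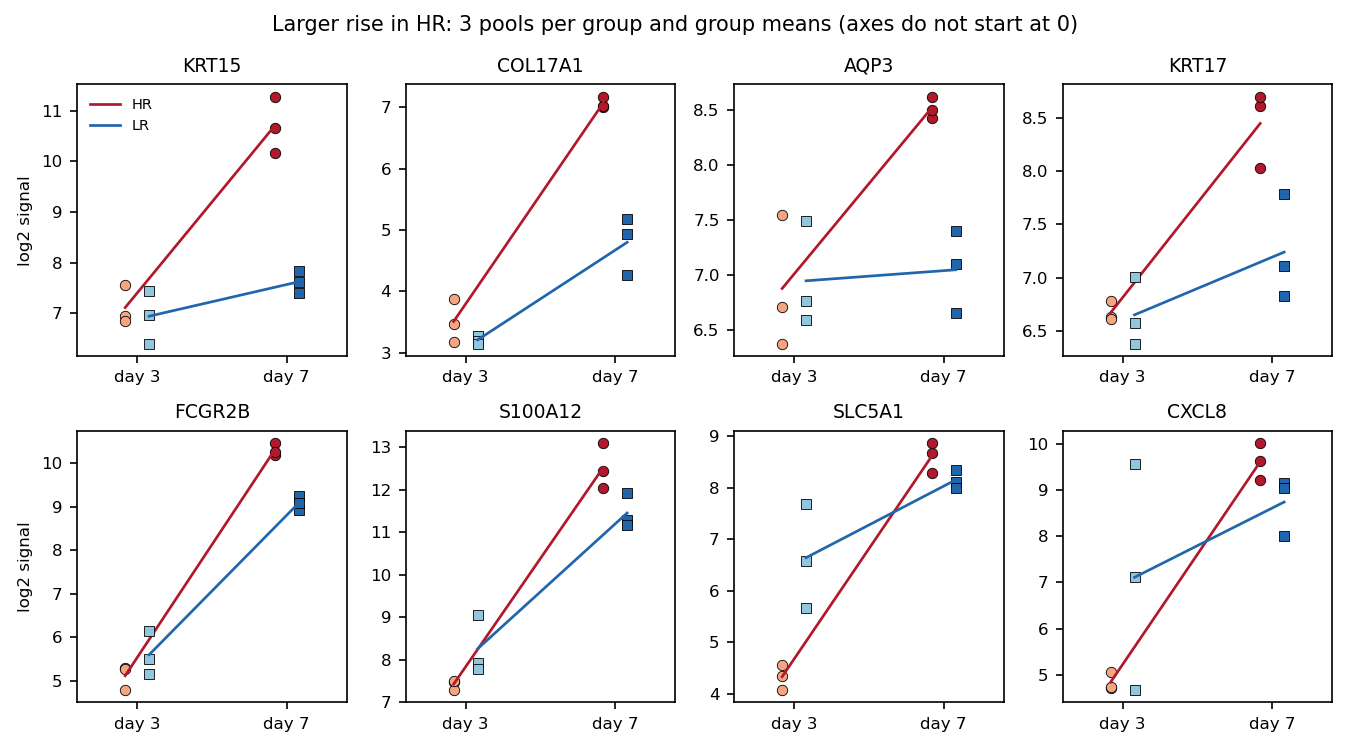
Log2 signal of 8 genes with a larger rise in HR, each point being 1 pool (circles HR, squares LR) and each line joining the means of 3 pools at day 3 and day 7. In KRT15, COL17A1, AQP3, KRT17 and FCGR2B the 3 HR7 pools lie above the 3 LR7 pools, while in SLC5A1 the pools are farther apart at day 3.

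Genes of innate immune cells and their attractants made up the next group. FCGR2B, an inhibitory receptor for IgG, was at 4.79, 5.29 and 5.27 in HR3 and 5.15, 5.50 and 6.14 in LR3. It reached 10.45, 10.18 and 10.26 in HR7 and 8.92, 9.25 and 9.07 in LR7. The pools overlapped at day 3 and separated at day 7. FCGR2B rose by 5.18 in HR and 3.48 in LR, with an interaction of 1.70 ± 0.32 (0.99 to 2.40, limma adjusted p = 0.269).

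S100A12, S100A8 and S100A9 are calcium-binding proteins abundant in neutrophils, and S100A8 and S100A9 are also made by activated stratified epithelium. S100A12 read 7.47, 7.28 and 7.50 in HR3 and 12.04, 13.09 and 12.43 in HR7, beside 7.91, 7.78 and 9.05 in LR3 and 11.28, 11.91 and 11.16 in LR7. HR lay below LR at day 3 and above it at day 7, without overlap at either day. It rose by 5.10 in HR and 3.20 in LR, and the interaction was 1.90 ± 0.48. S100A8 rose by 4.82 and 2.91, and S100A9 by 2.31 and 1.15. The other tested probe set of S100A9 rose by 4.76 and 2.58, with an interaction of 2.18 ± 0.52. LTF, which codes for lactoferrin and is made by neutrophils and by uterine glands, had changes of 0.00 and -0.16.

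These 4 genes are the tested part of a neutrophil list of 17, of which 13 were on the array and 8 lay below the array median on all arrays. None was at 0 on any array. The summed linear signal of the 13 ranged from 16428 to 16682 in HR3 and 23459 to 29518 in HR7, and from 14924 to 16698 in LR3 and 18932 to 22433 in LR7. The 4 tested genes had a mean of only 7.46 log2 units in HR3. Most of the day 3 sum thus came from a bright signal that was neither tested nor below the array median, and the sum is no level of the 4 genes. The median interaction of the 4 was 1.53, from 1.03 to 1.84 over the other settings tried, and 3 had an unadjusted p under 0.05. A part of neutrophil number in these values was not tested.

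CXCL8, which draws neutrophils into tissue, had the largest interaction among genes with 1 symbol, at 3.15 ± 1.21, but its pools were uneven. It read 5.06, 4.72 and 4.73 in HR3 and 4.67, 7.11 and 9.56 in LR3. At day 7 it read 10.01, 9.62 and 9.21 in HR and 9.16, 9.05 and 8.01 in LR. The LR3 pools spanned nearly the whole range from the HR3 to the HR7 level, and 1 of them was at the HR3 level. Leaving out single pools moved the interaction from 1.93 to 4.37.

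Among 26 tested inflammatory mediators, 12 rose and 1 fell in HR, and 7 rose and 2 fell in LR. The median interaction was 0.43, with 19 positive and 7 negative values, and it stayed between 0.18 and 0.56 over the other settings. None passed, and 3 had an unadjusted p under 0.05. These were CXCL8, the cytokine IL18 at 0.75 ± 0.33 and the chemokine CXCL3 at -1.05 ± 0.42. CXCL3 met the level limit in LR7 alone, where it was high, so its place in this count is in part a matter of the filter. With the dap covariate the interaction of CXCL3 was -0.16 and that of IL18 0.68. CCL2, which attracts monocytes, rose by 4.19 in HR and 3.13 in LR with overlapping pools at day 7. The 10 tested T and NK cell genes had medians of -0.45 in HR and -0.68 in LR, and 3 and 4 of them fell. The 4 tested B and plasma cell genes had medians of -0.20 in HR and -0.93 in LR and a median interaction of 0.46. Among them IGHM, the heavy chain of IgM, fell in LR with a change of -1.27 and had -0.26 in HR. Its LR3 pools were uneven, at 7.73, 8.09 and 10.06. MZB1, a chaperone of antibody assembly, rose by 0.73 and 0.57. Macrophage genes, 9 tested, had a median interaction of 0.04.

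Interferon-stimulated genes gave a mixed picture with some larger rises in LR. MX1, an interferon-induced GTPase known as an early pregnancy marker in cattle, read 9.80, 9.63 and 9.48 in HR3 and 9.30, 9.60 and 9.59 in LR3. At day 7 it was 9.95, 9.90 and 9.73 in HR and 10.51, 10.09 and 10.66 in LR, with all LR7 pools above all HR7 pools. MX1 rose by 0.92 in LR and changed by 0.22 in HR, with an interaction of -0.70 ± 0.24. IFI6 rose by 0.80 in LR with a change of -0.23 in HR, but its LR7 pools ranged from 11.25 to 12.66. IRF5 went the other way. It rose by 0.89 in HR and had a change of 0.28 in LR, with an interaction of 0.61 ± 0.23. ISG15 rose by 1.84 and 1.71. Of 25 tested members 9 rose in HR and 7 in LR, and the median interaction of -0.03 changed sign under 4 of 28 other settings.

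Some nutrient transporters had a larger mean rise in HR, and for a glucose transporter the difference lay at day 3. SLC5A1, the sodium-coupled glucose transporter, read 4.07, 4.56 and 4.35 in HR3 and 7.68, 6.57 and 5.67 in LR3. By day 7 it read 8.29, 8.86 and 8.67 in HR and 8.11, 8.35 and 8.0 in LR. At day 3 every HR pool lay below every LR pool, by 2.31 in the mean, and at day 7 the ranges overlapped. It rose by 4.28 in HR and 1.51 in LR, with an interaction of 2.77 ± 0.53 (1.61 to 3.93, limma adjusted p = 0.269), and without LR3 replicate 3 it passed at 3.25 with an adjusted p of 0.0343. SLC6A14, a transporter of neutral and cationic amino acids, rose by 1.47 in HR and changed by 0.20 in LR. Its HR7 pools at 9.63, 10.05 and 10.05 lay above those of LR7 at 9.21, 8.83 and 8.94.

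The nutrient transporters as a whole did not share this. Of 18 tested, 8 rose in HR and 6 in LR, with medians of 0.38 and 0.34 and a median interaction of 0.08. At an unadjusted limma p under 0.05, 3 of the 18 had a positive interaction and 1, SLC3A2, a negative one. SLC3A2 rose by 0.85 in LR and changed by 0.19 in HR, with an interaction of -0.66 ± 0.30 that was 0.06 with the dap covariate. The amino acid transporter SLC1A5 had changes of 0.38 and 0.35. FABP3, a fatty acid binding protein, rose by 4.53 in HR and 3.54 in LR and was likewise lower in HR at day 3, with 5.57, 6.17 and 5.82 against 7.11, 7.14 and 6.87, while the day 7 pools overlapped. Among hormone-regulated genes PIP, a secreted prolactin-induced protein, had nearly parallel rises of 2.21 and 2.50. DGAT2, an enzyme of triglyceride synthesis, had changes of 4.87 and 5.10. Its day 3 pools in LR ran from 0.48 to 6.13, all below the array median, so how parallel it was cannot be read. Over the 22 tested genes of steroid receptors and hormone-regulated endometrial genes, 11 rose in HR and 10 in LR, with medians of 0.47 and 0.48.

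Genes of cilia had more negative day changes in HR, but none passed for the interaction. IFT52, a subunit of the particle that carries cargo along cilia, read 8.55, 8.53 and 8.41 in HR3 and 7.53, 7.24 and 7.53 in HR7, beside 8.05, 8.13 and 8.33 in LR3 and 7.84, 7.63 and 7.69 in LR7. HR lay above LR at day 3 and below it at day 7, each without overlap, and IFT52 fell by 1.06 in HR and fell by 0.45 in LR. Its interaction was -0.61 ± 0.19. CCDC153, a coiled-coil protein of motile cilia, read 8.0, 8.09 and 7.80 in HR3 and 6.28, 6.59 and 7.32 in HR7, beside 7.49, 7.66 and 8.21 in LR3 and 7.52, 7.52 and 7.88 in LR7. It fell by 1.23 in HR, and its change of -0.15 in LR did not pass.

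All 6 tested markers of ciliated epithelium fell in HR and 1 of 6 fell in LR. TPPP3, a tubulin-binding protein, fell by 1.73 in HR and had a change of -0.41 in LR. Its HR7 replicate 3, at 8.08, lay within the LR7 range of 7.96 to 8.89, while the other 2 were at 6.82 and 6.86. CCDC39 and SPAG6, parts of the motile axoneme, had changes of -1.53 and -1.52 in HR and -0.49 and -0.66 in LR. RSPH9, a radial spoke protein, had an interaction of -0.91 ± 0.41 and TEKT1, a filament protein of axonemes, of -0.79. The median interaction of the 6 was -0.88, from -1.25 to -0.65 over the other settings, against -0.02 for all genes, and 2 had an unadjusted p under 0.05. None passed.

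Of the 23 listed ciliated markers 7 were on the array, 1 lay below the array median on all arrays and none was at 0. Their summed linear signal ranged from 5208 to 7015 in HR3 and 2393 to 3028 in HR7, and from 4618 to 6701 in LR3 and 2687 to 3749 in LR7, so that the day 7 ranges overlapped. Whether fewer ciliated cells were brushed from HR7 was not tested. CLDN10, a claudin of uterine epithelium, followed the ciliated genes, with a fall of 1.45 in HR and a change of -0.53 in LR, although the uterine epithelial list had a median interaction of 0.00.

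**Figure D3:**
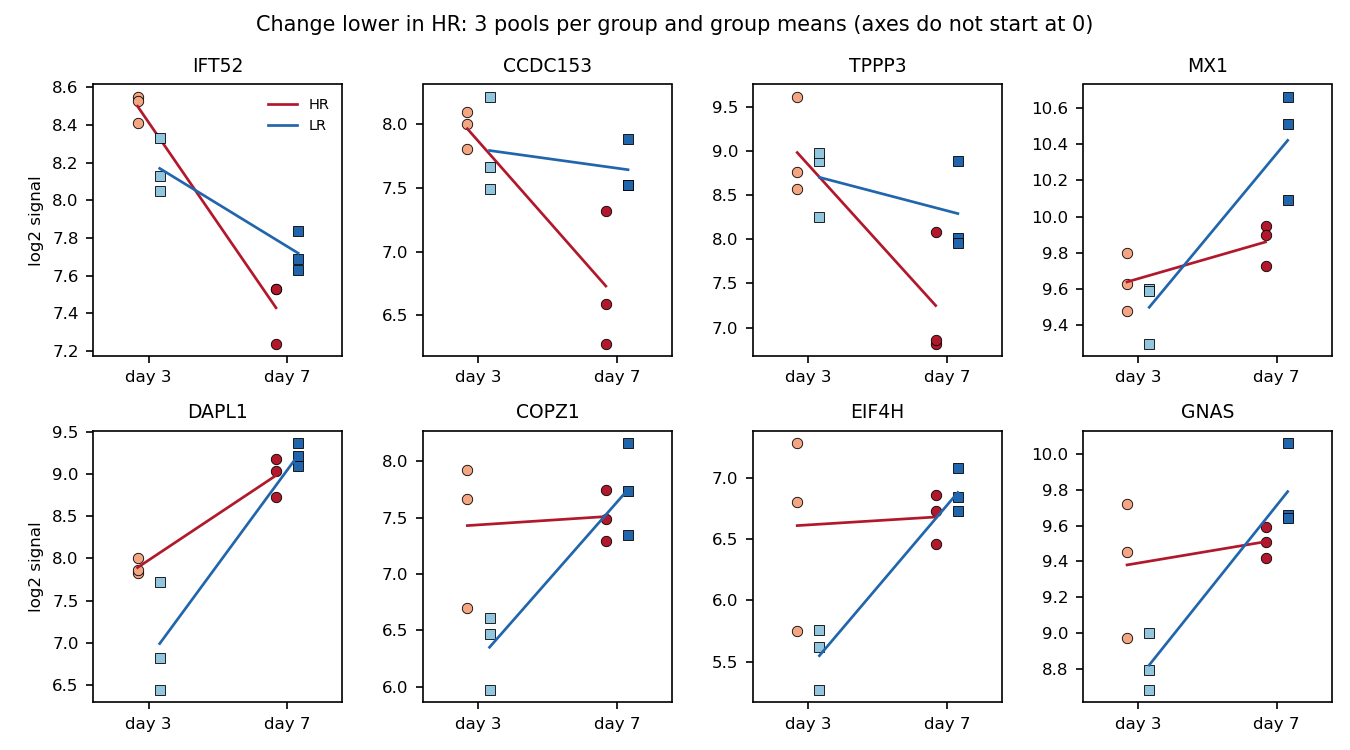
Log2 signal of 8 genes whose change from day 3 to day 7 was more negative or less positive in HR, each point being 1 pool (circles HR, squares LR) and each line joining means of 3 pools. IFT52, CCDC153 and TPPP3 have the steeper decrease in HR, MX1 and DAPL1 the steeper rise in LR, and in COPZ1, EIF4H and GNAS the LR3 pools are low and 1 HR3 pool lies near the LR3 pools.

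A further set had low signals in LR3, and these moved with controls for labelling, more with dap than with thr (both described below). COPZ1, a subunit of the coat of Golgi vesicles, read 6.7, 7.92 and 7.67 in HR3 and 5.97, 6.61 and 6.47 in LR3, and 7.75, 7.29 and 7.49 in HR7 and 8.16, 7.74 and 7.35 in LR7. It rose by 1.40 in LR and changed by 0.08 in HR. EIF4H, a translation initiation factor, had an interaction of -1.26 ± 0.43, and GNAS, the stimulatory G protein subunit, of -0.84 ± 0.27, while a second tested probe set of GNAS gave 0.10 ± 0.21. TGIF1, a repressor in TGF-beta signaling, had -0.90 ± 0.30 and RNF25, a ubiquitin ligase, -0.68 ± 0.23. EIF4H and TGIF1 met the level limit through a single group, LR7 for EIF4H and HR3 for TGIF1.

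The arrays carry control probe sets at the 5′ and the 3′ end of dap, a transcript used to follow cDNA synthesis and labelling, and a 5′ signal far below the 3′ signal means shorter products. The 5′ minus 3′ difference of dap was -3.13, -2.66 and -2.86 in LR3, -2.74, -1.39 and -1.32 in HR3, -1.50, -1.47 and -1.88 in LR7 and -2.30, -1.77 and -1.84 in HR7. LR3 was thus the lowest group apart from 1 HR3 pool, replicate 1, which was also the lowest HR3 pool for COPZ1 and EIF4H. With this difference as a covariate the interaction went to -0.31 for COPZ1, -0.19 for EIF4H, -0.28 for GNAS, -0.18 for TGIF1 and -0.38 for RNF25. It was 3.49 for KRT15, 2.33 for COL17A1, 2.11 for FCGR2B, 3.01 for SLC5A1, -0.70 for IFT52, -1.0 for CCDC153 and -0.95 for MX1, and of these CCDC153 no longer had an unadjusted limma p under 0.05 (0.0796). Other named genes lost it too, among them CXCL3 at -0.16, TPPP3 at -1.01, RSPH9 at -0.76, PPP1R32 at -0.58, KRT17 at 1.11, MALL at 1.04 and CXCL8 at 3.54. Among those that kept it were S100A12 at 2.17, AQP3 at 1.66 and SLC6A14 at 1.49. Losing it did not always go with a much smaller interaction, as standard errors could also grow. Without and with dap the interaction was 3.15 ± 1.21 and 3.54 ± 1.76 for CXCL8, and 1.18 ± 0.36 and 1.11 ± 0.52 for KRT17. It was 1.19 ± 0.35 and 1.04 ± 0.50 for MALL, but -1.05 ± 0.42 and -0.16 ± 0.47 for CXCL3. Over all probe sets the same covariate turned 286 at an unadjusted p under 0.05 into 123, with 80 positive and 43 negative, and lowered the day changes that passed in LR from 3280 to 320. In LR every day 3 pool had a lower dap difference than every day 7 pool, so dap and day cannot be told apart there. In HR, where the days overlapped in dap, 3131 day changes passed with the covariate. With thr, a like control, as the covariate instead, the interaction was -0.84 for COPZ1, -0.85 for EIF4H, -0.54 for GNAS, -0.5 for TGIF1 and -0.49 for RNF25. All of these but EIF4H kept an unadjusted limma p under 0.05. Over all probe sets thr gave 330 at that threshold, with 150 positive and 180 negative. Day changes that passed in LR were 2574 with thr. The part of labelling in these genes was not tested further.

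**Figure D4:**
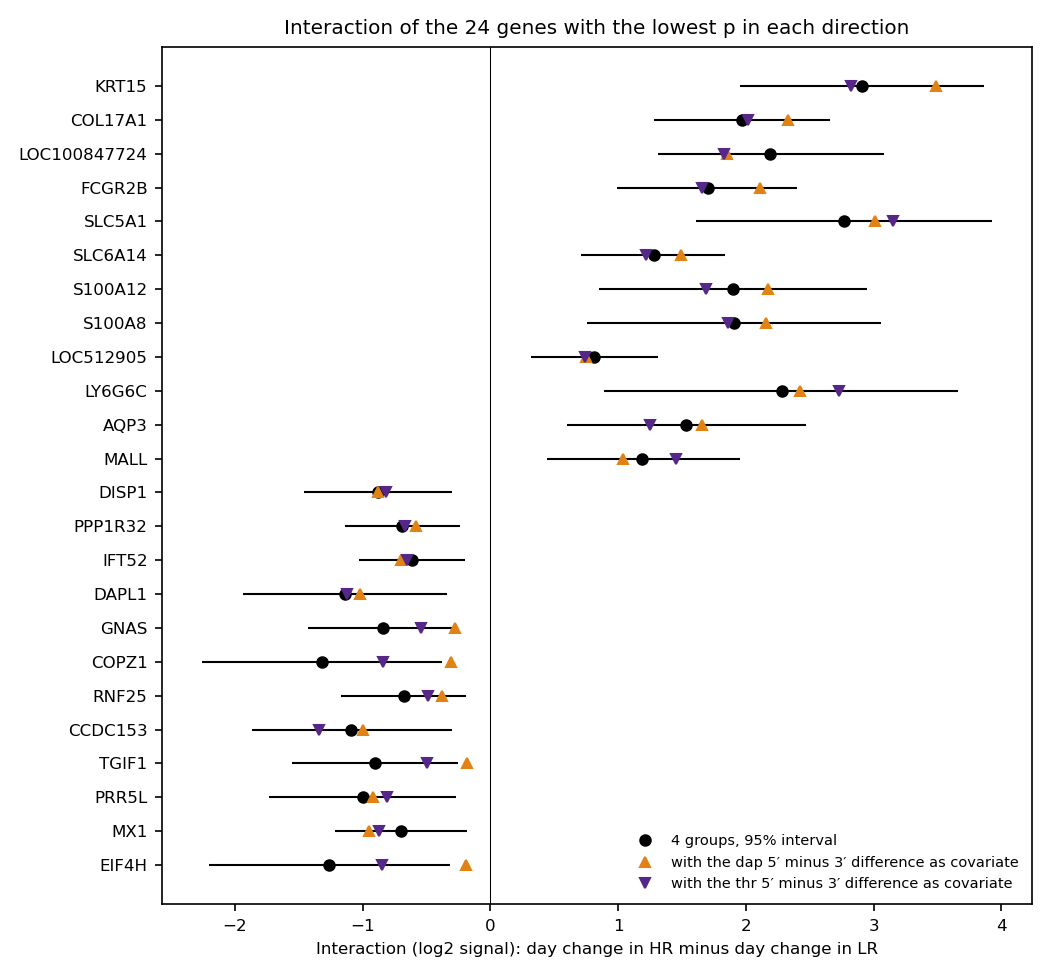
Interaction in log2 signal of the 12 genes with the lowest p in each direction, with 95% intervals (black, 12 pools), and the same value with the dap or the thr 5′ minus 3′ difference of each array as a covariate (triangles); thr is a like control. No gene changes sign, while COPZ1, EIF4H, GNAS and TGIF1 move to between -0.31 and -0.18 with dap and lie between -0.85 and -0.5 with thr.

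With the dap covariate the interaction of DISP1 stood at -0.88, as without it. That of DAPL1 went from -1.14 ± 0.37 to -1.02 ± 0.53 and no longer had an unadjusted p under 0.05 in limma. DAPL1, a death-associated-protein-like gene of epithelia, read 8.0, 7.82 and 7.86 in HR3 and 9.03, 9.18 and 8.73 in HR7, beside 6.44, 7.72 and 6.82 in LR3 and 9.36, 9.09 and 9.21 in LR7. It rose by 1.09 in HR and 2.23 in LR from a lower start. DISP1, which releases Hedgehog ligands from cells, rose by 0.75 in HR and 1.63 in LR. Its HR3 pools at 6.67, 6.69 and 7.00 lay above those of LR3 at 6.30, 5.64 and 5.73, and at day 7 the pools overlapped. The remaining genes named by the lowest p were LOC100847724 (2.19 ± 0.41), LOC512905 (0.81 ± 0.23), the phosphatase regulator PPP1R32 (-0.69 ± 0.21), which fell in HR by 0.67 with a change of 0.02 in LR, and PRR5L, a partner of mTOR complexes (-1.0 ± 0.33). All these p-values are the lowest of 3783 genes, and none of the 24 passed.

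Stromal markers had negative median day changes in both groups and large differences between pools. Of 13 tested stromal markers 5 fell in HR and 3 in LR, and the median change was -1.41 in HR and -0.63 in LR. Their median interaction was -0.67, with 12 of 13 negative, but none had an unadjusted p under 0.05. DCN, a matrix proteoglycan, read 8.48, 8.91 and 11.12 in HR7, and COL3A1, a fibrillar collagen, 9.35, 10.35 and 12.69, so that HR7 replicate 3 carried as much as HR3. The summed linear signal of the 18 stromal markers on the array ranged from 16402 to 22183 in HR3 and 5555 to 18656 in HR7, and from 8700 to 17093 in LR3 and 5776 to 12289 in LR7. None of them was at 0. LUM, another matrix proteoglycan, fell in both groups, with changes of -2.16 and -2.22. For 34 tested collagens and matrix proteases the median was -0.87 in HR and -0.62 in LR, 13 fell and 7 rose in HR, 12 fell and 6 rose in LR, and only 9 had an interaction interval within 1 log2 unit.

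Of 40 tested nuclear genes of oxidative phosphorylation, which code for the respiratory chain and ATP synthase, 25 rose and 1 fell in HR and 25 rose and 0 fell in LR. At an unadjusted p under 0.05, 0 of the 40 had an interaction in limma, and the values ran from -0.32 for SDHA to 0.24 for NDUFS3. The median change was 0.39 in HR and 0.41 in LR, the median interaction was 0.00, and 39 of 40 intervals lay within 1 log2 unit. The study had named 14 genes of mitochondrial dysfunction for the change in LR on these same samples, so their direction is not independent evidence. Of these 12 were tested, 9 rose in LR and 2 in HR, with medians of 0.50 and 0.28, and 11 of 12 had a negative interaction with none that passed. With the dap and thr covariates and the other settings the median of these 12 ran from -0.37 to 0.17.

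Of 36 tested secretory pathway genes 25 rose in HR and 24 in LR, with medians of 0.51 and 0.56. Their interactions ran from -1.32 for COPZ1 to 0.66 for SDF2L1, a protein of the endoplasmic reticulum, which rose by 1.58 in HR and 0.92 in LR. DNAJB9, a chaperone of the unfolded protein response, had changes of 1.28 and 1.24. Of 28 tested cell cycle genes 18 fell in HR and 16 in LR, with medians of -0.64 and -0.60, and 19 had an interval within 1 log2 unit. MCM4, a subunit of the replicative helicase, fell with changes of -1.23 and -0.99, and the mitotic cyclin CCNB1 rose by 2.58 and 2.92. Glycolysis and citric acid cycle genes had medians of 0.42 and 0.47, with 10 and 16 of 29 that rose. Antioxidant genes of the NRF2 pathway had medians of 0.47 and 0.46, and GCLC, which makes the first step of glutathione synthesis, changed by 1.68 and 1.67. DNA methylation and chromatin genes had medians of -0.47 and -0.39, with 8 of 15 that fell in each group.

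**Figure D5:**
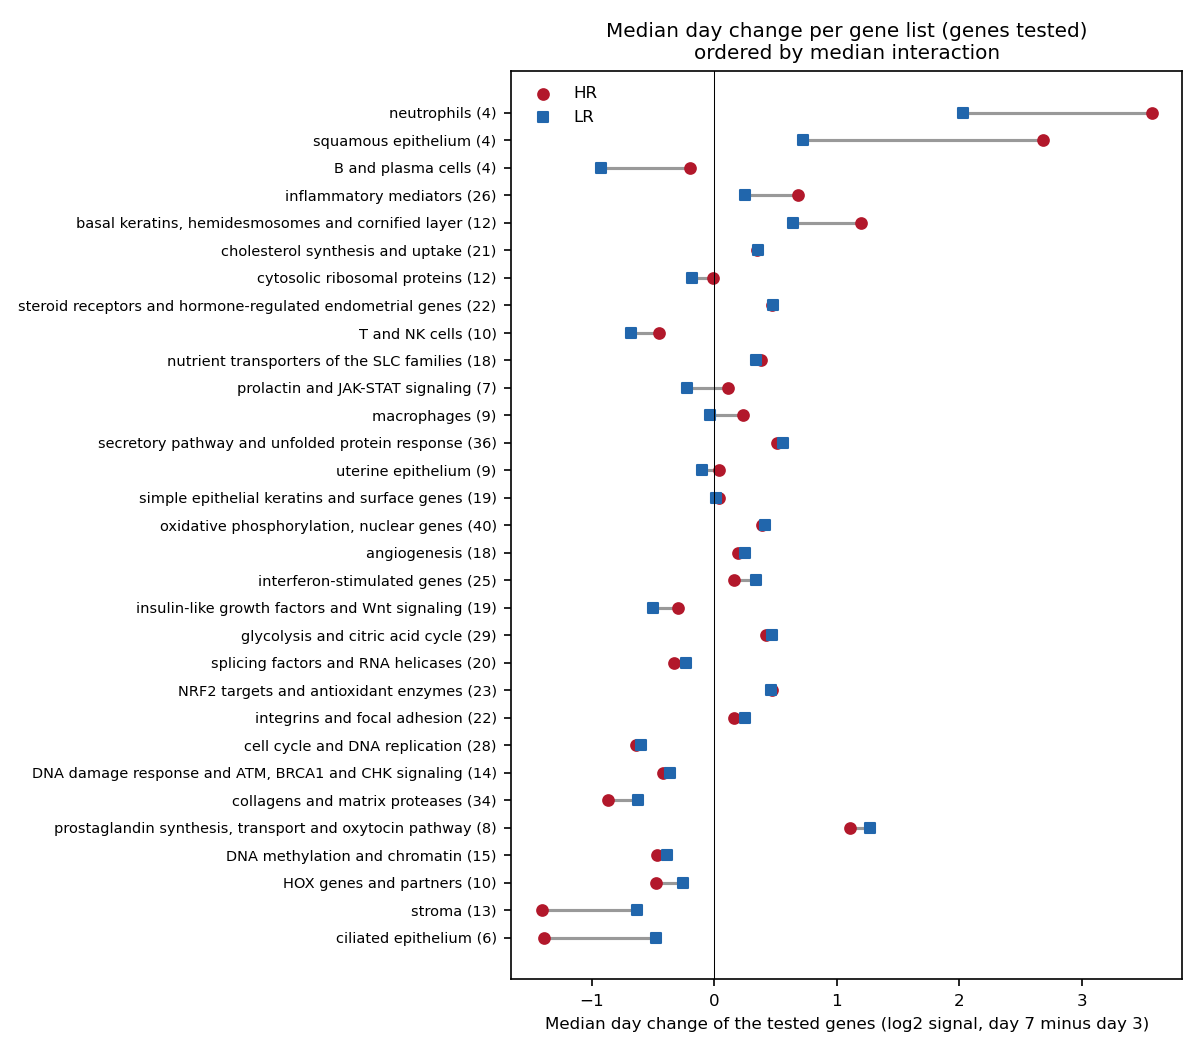
Median change from day 3 to day 7 (log2 signal) over the tested genes of each gene list, with HR as circles and LR as squares, lists ordered by their median interaction and the number of genes tested in brackets. The medians of oxidative phosphorylation, secretory pathway and cell cycle genes nearly coincide, and those of neutrophil, squamous, stromal and ciliated markers lie farthest apart.

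Prostaglandin genes had wide intervals. PTGS2, the inducible enzyme of prostaglandin synthesis, rose by 3.52 in HR and 2.39 in LR, and HPGD, which breaks prostaglandins down, by 1.72 and 1.92. PTGES, which makes prostaglandin E2, had changes of -0.06 and -0.67 that did not pass. The interaction of PTGS2 was 1.13 ± 1.07, with LR3 pools at 8.36, 5.79 and 5.94. OXTR, the oxytocin receptor, fell, with changes of -1.94 and -1.36. Only 2 of the 8 tested genes of this list had an interval within 1 log2 unit. In the rest of the PCR panel that the study chose, the RNA helicase DDX46 had an interaction of 0.39 ± 0.50, the sodium pump subunit ATP1B3 of 0.19 ± 0.20, and the adaptor subunit AP2S1 was too even over the arrays to be tested, at -0.03.

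The study examined DNA methyltransferases for the methylation of the endometrium, and on the pooled arrays none of those tested passed for the interaction. By PCR on single samples, the study reported that DNMT1 transcripts depended on the interaction of receptivity and day. It reported the same for global DNA methylation, while DNMT3A and DNMT3B did not reach its threshold. The arrays carried pools and fewer values per group, so they are no test of that result. DNMT1, which maintains methylation, changed by -0.53 in HR and -0.37 in LR with an interaction of -0.17 (-0.84 to 0.50). DNMT3A, which sets new methylation, fell by 0.76 in HR and had a change of -0.38 in LR, with an interaction of -0.39 (-1.01 to 0.24). Its other tested probe set went the other way, with changes of 0.31 in HR and 0.18 in LR that did not pass and an interaction of 0.13. The direction of DNMT3A thus depended on the probe set. With the dap covariate the sign turned, to 0.33 for DNMT1 and 0.06 for the first probe set of DNMT3A. DNMT3B lay below the array median and was not tested, at 4.38 to 5.38 over the 12 pools. Among regulators that the study had linked to the day change on these samples, the nuclear corepressor NCOR1 had an interaction of -1.12 ± 0.39, which was -0.14 with the dap covariate, and the transcription factor MYB fell by 1.06 in HR with a change of 0.09 in LR.

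As examples of parallel change, the 5 genes with the largest mean rise and the 5 with the largest mean decrease were taken among those whose interaction interval lay within 1 log2 unit, so their likeness is a condition of the choice. MRPS36, a mitochondrial protein, read 8.55, 8.66 and 8.94 in HR3 and 11.72, 12.07 and 11.72 in HR7, beside 9.03, 9.33 and 8.84 in LR3 and 12.26, 12.52 and 11.56 in LR7. It rose by 3.12 and 3.05, and its interaction was 0.07 (-0.64 to 0.79). The others that rose were RUBCNL, of autophagy, the adiponectin receptor ADIPOR2, the copper transporter SLC31A2 and the sulfotransferase SULT1A1, which rose by 2.23 in HR and 2.25 in LR. KLF11, a transcriptional repressor, fell from 10.32, 10.27 and 10.20 in HR3 to 7.72, 8.06 and 8.76 in HR7 and from 9.96, 9.86 and 9.81 in LR3 to 7.02, 7.89 and 8.05 in LR7. Its other tested probe sets were less parallel. They gave interactions of 0.85 (0.05 to 1.66) and 0.53 (-0.54 to 1.61), with intervals that reach beyond 1 log2 unit. The others that fell had changes of -2.01 and -2.07 for the Notch ligand JAG1, -2.0 and -2.01 for the Wnt receptor FZD10, -1.87 and -1.90 for the PI3-kinase inhibitor PIK3IP1 and -1.89 and -1.56 for NREP, a neuronal regeneration related protein.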

How the data were processed

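The deposited table holds log2 signals of 12 Affymetrix bovine arrays, which per the labels and methods the authors made with GCOS 1.1.1 and PLIER in Affymetrix Expression Console. Present calls, on which the study filtered, were not used here, and a level above the array median stood in for them. Values ran from 0 to 14.07, with 281 to 395 entries at 0 per array. The number of arrays, 3 pools per group, limits the precision. One linear model with a mean per group was fitted over the 7339 probe sets tested (limma 3.58.1, R 4.3.3), with moderated variances (12.09 total degrees of freedom) and Benjamini-Hochberg adjustment, and the contrast was (HR7 - HR3) - (LR7 - LR3). The study described row-by-row models with receptivity and day as fixed effects, and the interaction and the moderated variances were added here. Of the tested probe sets 522 passed the level limit through 1 group only. Of 24016 probe sets 13292 had 1 gene symbol, 86 several and 10638 none, and only those with 1 symbol were named.

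Genes named were the 12 with the lowest p in each direction, 10 parallel genes, the study's PCR panel and methyltransferases, and up to 4 per list at an unadjusted p under 0.05. Other list members and the summed marker signals were named after their values were seen. The members and the 44 gene lists were chosen with earlier results of these data known. Of 1308 listed symbols 940 matched directly, 50 through an older symbol and 318 not at all. Results were recomputed under the alternatives that apply to each (filter, normalization, test, covariates, replicate block, single pools left out), and the scripts were tested on simulated data.

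Pool numbers recur in every group. Between pools that share a number, deviations from the group means had a correlation of 0.118, 0.003 and -0.06 between HR3 and HR7, and of 0.198, 0.211 and 0.463 between LR3 and LR7. The main model used no pairing. Pool numbers entered only as alternatives, and pairing by number within LR alone was chosen from the data and not from the labels. The correlations were 0.136, 0.147 and 0.445 between HR7 and LR7, while all 3 were negative between HR3 and LR3. HR and LR were split by outcome and hold different heifers, so such correlations cannot tell which pools share animals.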

Additional observations from a re-analysis of the deposited data

How the results depend on the processing

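Without the level limit, 1 probe set with no gene symbol passed for the interaction, also without any filter, and 2 passed with 16 added to the signal (KRT15 and COL17A1). At the study's adjusted p of 0.16 there were 3, and at an unadjusted p 286. Leaving out 1 pool gave 0 to 2: 1 without LR3 replicate 3 (SLC5A1) and 2 without HR3 replicate 1, INS at -2.65 and a probe set with no symbol at -1.48. At an unadjusted p the count was 753 without the level limit, 456 without the minimum standard deviation, 971 without a filter, 155 for probe sets above the median on all arrays, 699 with array weights and 123 with the dap covariate, and 156 to 548 with 1 pool left out, the lowest without HR3 replicate 2 (181 without HR7 replicate 2) and the highest without HR3 replicate 1. With 1 pool left out, day changes that passed ranged from 1926 (without HR7 replicate 2) to 3222 in HR and from 2155 (without LR7 replicate 1) to 3261 in LR, and LR had 320 with dap and 1957 from the LR pools alone. Pearson r was 0.65 without the level limit, 0.648 without a filter and 0.846 with dap, and 0.869 to 0.905 with 1 pool left out. The interaction's share of the sums of squares was 6.61% and 6.6% without the level limit and without a filter. With the thr covariate, 330 probe sets had an unadjusted limma p under 0.05 for the interaction, and 2574 day changes passed in LR. The causes were not tested. With the pool number as a replicate block 0 probe sets passed for the interaction and 298 had an unadjusted p under 0.05, a random replicate block within receptivity groups gave 0 and 405, and the LR pools alone with the replicate block, added after seeing the data, gave 2786 day changes. The replicate block changed no call by more than 1.5 times. None of the 24 genes with the lowest p changed sign in the 25 to 28 alternatives run for each. Centring arrays on their medians gave 3859 positive and 3480 negative interactions, against 3626 and 3693, and moved the median by 0.02. Low signals are imprecise, and with 3 pools a group the median half-width of the unadjusted 95% interval was 0.56 log2 units. Passing at the adjusted threshold asked for a larger difference than that.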
